A study of Homo sapiens with 24 samples.

Results

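The genes described here encode the subunits of the mitochondrial respiratory chain and ATP synthase, measured as mRNA in A549 lung adenocarcinoma cells. Members were all protein-coding genes whose symbols begin as the subunit families of complexes I to V do (NDUFA, NDUFB, NDUFC, NDUFS and NDUFV; SDHA to SDHD; UQCR; COX4 to COX8; ATP5; and the MT-ND, MT-CO, MT-ATP and MT-CYB genes of the mitochondrial genome). The rule used names and no measured value. It found 102 members among the 58721 gene identifiers in the count tables, of which 89 lie in nuclear chromosomes and 13 in the mitochondrial genome. The nuclear members comprised 37 genes of complex I, 4 of complex II, 9 of complex III, 19 of complex IV and 20 of complex V, and the mitochondrial members 7, 0, 1, 3 and 2 in the same order. NDUFA4, first assigned to complex I, was counted with its paralog NDUFA4L2 under complex IV. A pair of members are readthrough genes that join a subunit gene to its neighbour.

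The 24 libraries were all made from A549, an established human lung adenocarcinoma cell line. The groups siMYBL2 and siFOXM1 each held 4 libraries, from cells transfected with 25 nM siRNA against the transcription factor MYBL2 or the transcription factor FOXM1. The group siControl held 4 libraries from cells transfected with a scrambled siRNA. The group siBoth held 3 libraries with both transcription factors targeted together and had its own scrambled control, labelled siControl_Both and written here as siControl_siBoth, also of 3 libraries. The group FDI-6 held 3 libraries from cells given 20 µM of forkhead domain inhibitor 6, a small molecule that blocks DNA binding by FOXM1, for 24 h, and its control, control_FDI-6, held 3 and is named DMSO by the study. The labels give the genotype of the controls as wild type and name no other allele or agent. The single knockdowns share the same 4 siControl libraries, so their results are not independent of each other.

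The respiratory chain passes electrons from NADH (complex I) and succinate (complex II) through complex III to oxygen at complex IV, pumping protons across the inner mitochondrial membrane, and ATP synthase (complex V) uses the return flow of protons to make ATP. Most subunits are transcribed in the nucleus, translated in the cytosol and imported, whereas a small set of hydrophobic core subunits is transcribed inside mitochondria as long polycistronic RNAs that are cut at the tRNAs between the genes. Complex II is encoded entirely by nuclear genes. Proliferating tumour cells in culture draw on both respiration and glycolysis, and the chain also supports nucleotide synthesis.

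Each library held 16487394 to 30140550 read pairs assigned to genes. The targeted mRNAs were low where the labels say so, with MYBL2 in siMYBL2 at 4.16% and FOXM1 in siFOXM1 at 9.59% of the siControl mean, and both at 4.91% and 9.67% of control in siBoth. With FDI-6, which acts on the FOXM1 protein, MYBL2 mRNA stood at 70.0% and FOXM1 mRNA at 77.5% of control. The epithelial markers KRT8, KRT18, KRT19, EPCAM and CDH1 were expressed in every library, with a summed level of 2750.7 to 8232 CPM (read pairs per 1e6 assigned pairs, scaled between libraries). The 9 markers of leukocytes, fibroblasts and endothelium summed to 5.47 to 60.0 CPM, nearly all of it COL1A1, and CD3E was at 0 in all libraries. With FDI-6, 4 of the 5 epithelial markers were lower and 1 higher (summed level 4244 to 5013 CPM against 7573 to 8232 CPM in control_FDI-6), the other markers summed to 5.47 to 9.88 CPM against 17.95 to 19.19 CPM, and their part in the results below was not tested. In bulk RNA, fewer cells of a type and less RNA per cell cannot be told apart. The 3 experiments also differed in the share of counts from the mitochondrial genes before any treatment: 3.14 to 3.71% in siControl, 4.41 to 5.82% in siControl_siBoth and 6.51 to 6.71% in control_FDI-6. Each treatment was therefore compared only with its own control.

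The 13 mitochondrial genes took 3.12 to 6.97% of the counts of a library and the 89 nuclear members together 0.658 to 0.884%, so that mitochondrial counts exceeded nuclear ones by 3.90 to 10.3 times. Per kilobase of transcript, the highest member in siControl was MT-CO1, the catalytic core of complex IV, at 7008 ± 581 CPM per kb (mean ± SD, n = 4). MT-CO3 followed at 5217 ± 384, MT-CO2 at 4891 ± 266 and MT-ATP6 at 3785 ± 351 CPM per kb, and the intervals of one SD around MT-CO3 and MT-CO2 overlapped. MT-ND6, the one subunit gene transcribed the opposite way, whose RNA carries no poly(A) tail, reached 1026 ± 62.3 CPM per kb. The libraries were prepared by poly(A) capture, so its level is not on the same footing as the others. MT-ND6 also borders MT-ND5, which lies on the other strand, with a gap of 0 bases. The strand setting was not stated, and without strand information pairs from RNA of the other strand could have been counted on MT-ND6. The highest nuclear member, ATP5F1B, the catalytic beta subunit of ATP synthase, stood at 577 ± 11.9 CPM per kb, below every mitochondrial gene. COX6B1 at 404 ± 37.2 and COX4I1 at 329.9 ± 12.02 CPM per kb, both nuclear subunits of complex IV, came next.

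**Figure D1:**
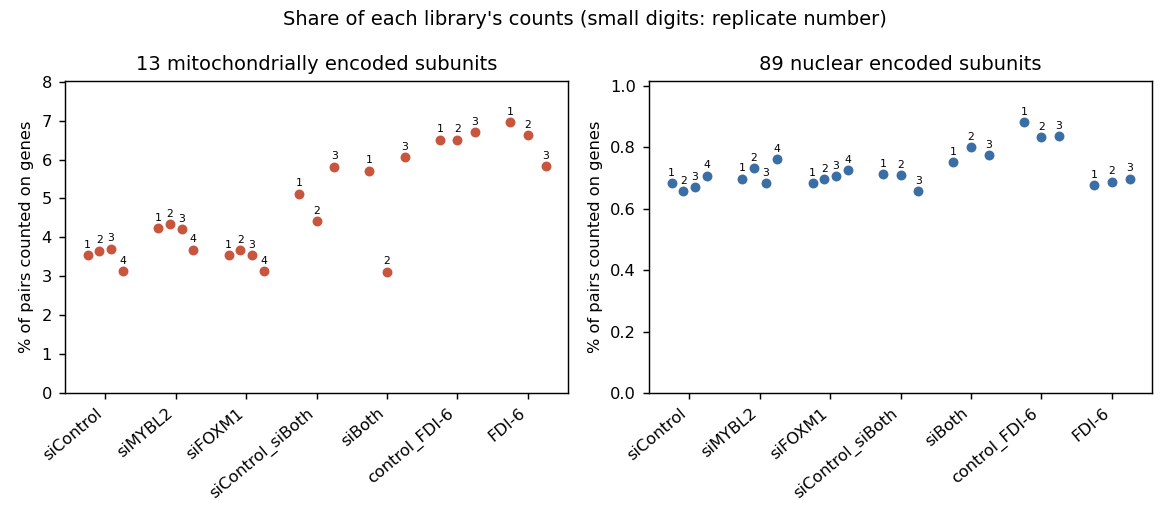
Share of assigned read pairs (percent, vertical axis) from the 13 mitochondrial and the 89 nuclear members in each of the 24 libraries, by group; each point is a library. The FDI-6 libraries sit below control_FDI-6 in the nuclear share, and the number 2 libraries of siBoth and siControl_siBoth sit lowest of their groups in the mitochondrial share.

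A member was tested where its counts passed the low-count filter: 81, 81, 80 and 80 nuclear members in siMYBL2, siFOXM1, siBoth and FDI-6, and all 13 mitochondrial ones in each. The untested nuclear members were COX4I2, COX6A2, COX7B2, COX8C, ATP5MGL, NDUFA7 and both readthrough genes in every comparison, with COX7A1 in siBoth and COX6B2 in FDI-6. Their mean level nowhere exceeded 0.496 CPM. A change is described as a rise or fall where edgeR's quasi-likelihood test gave an adjusted p (Benjamini-Hochberg, over all genes tested) under 0.05. A member is said to be called where the fold change was also over 1.5. Libraries with the same replicate number deviated together in the siRNA experiments, but this main test held no term for the pairing. Values from a fit with the number as a block are therefore also given where they alter a call.

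**Figure D2:**
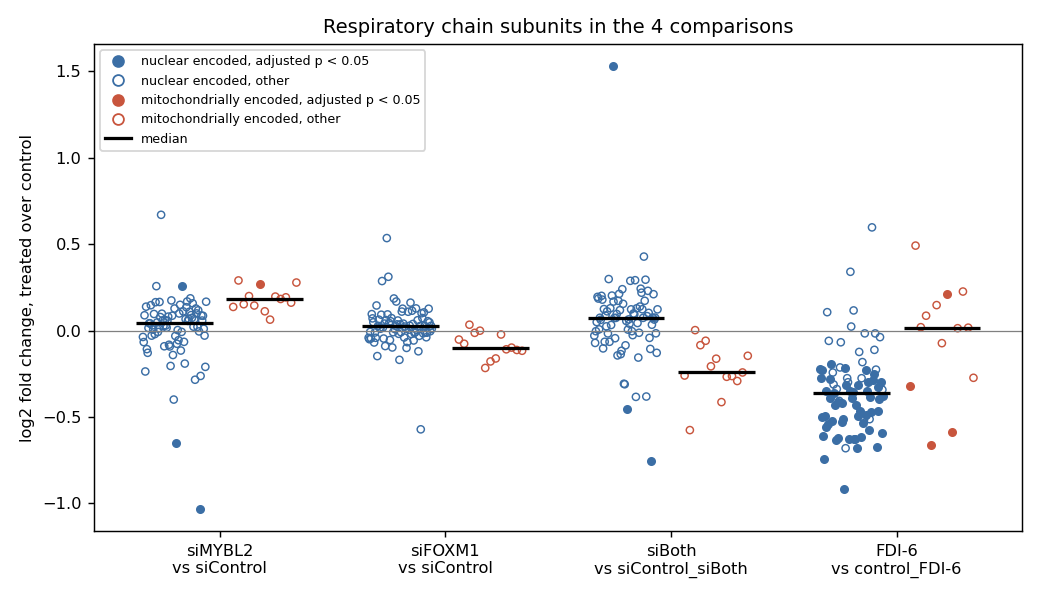
Log2 fold change of every tested member, treated over control, for nuclear and mitochondrial members in the 4 comparisons; each point is a gene, filled where adjusted p is under 0.05, and the black line is the median. The nuclear median is 0.04 in siMYBL2 and -0.36 in FDI-6.

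With MYBL2 depleted, most nuclear subunits differed little from siControl, and a pair stood well below it: UQCR10, a small accessory subunit of complex III, and NDUFA8, an accessory subunit of complex I. UQCR10 measured 16.5, 23.0, 17.1 and 18.6 CPM in the siMYBL2 libraries and 37.5, 35.5, 41.3 and 39.9 CPM in siControl. Every knockdown library was below every control, and the mean was 48.8% of control (log2 fold change -1.03 ± 0.11 (SE), adjusted p = 0.000571). NDUFA8 measured 28.5, 36.7, 27.5 and 31.8 CPM against 48.9, 47.6, 46.8 and 51.7 CPM. These groups did not overlap either, and the mean was 63.8% of control (log2 fold change -0.65 ± 0.10 (SE), adjusted p = 0.00250). These were the 2 called among 81 nuclear members, where 7.90% of all genes tested were called, and no mitochondrial gene was called.

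UQCR10 lies on the forward strand of chromosome 22 (hg38, chr22:29767369-29770413, 2 exons). A gene transcribed the other way covers 24.5% of its exon bases. The strand setting was not stated, and without strand information pairs there could have been left out as ambiguous. NDUFA8 lies on the reverse strand of chromosome 9 (hg38, chr9:122144058-122159779, 4 exons) and overlaps no other gene. Because these were the members called in siMYBL2, their promoter windows (RefSeq, GRCh38.p14, 250 bases before to 50 after the start) were searched on both strands for TTTGAA, the core of the cell cycle homology region through which complexes holding MYBL2 or FOXM1 meet cell cycle promoters, for GCGCANGC, the core recognised by NRF1, for AACNG, the Myb letters, for TTTAAA as a variant of the first motif, for CCAAT, bound by NF-Y, and for the ETS letters CCGGAAG. Capitals mark the matched letters in the 6 stretches shown, each written along the strand of its gene.
UQCR10, TTTGAA on the reverse strand, 97 bases before the start (chr22:29767261-29767288): tacctctgtggTTCAAAacacgaaggct
UQCR10, AACNG, 218 bases before the start (chr22:29767140-29767166): tgacatattctAACAGccaggaattct
UQCR10, GCGCANGC, 8 bases before the start (chr22:29767350-29767379): ggtcggccccaGCGCAGGCgcggtggcgcg
NDUFA8, AACNG on the reverse strand, 188 bases before the start (chr9:122159952-122159978): ctccatggcgcCTGTTtttagcttcca
NDUFA8, AACNG on the reverse strand, 171 bases before the start (chr9:122159935-122159961): ttagcttccagCTGTTaggatccggag
NDUFA8, GCGCANGC, 60 bases before the start (chr9:122159821-122159850): ttcttggtattGCGCACGCtccctcgctcg
UQCR10 also held CCAAT, 191 bases before the start, and NDUFA8 held 3 further overlapping matches of GCGCANGC within a few bases of the start. AACNG was in 77.1% of all 27305 promoter windows, TTTGAA in 15.4% and GCGCANGC in 12.5%. The letters TTTGAA were not in the NDUFA8 window. A match is a description of the letters, and binding was not examined here. The study mapped MYBL2 and FOXM1 binding in A549 cells by ChIP-seq, and those sites were not compared with these windows.

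**Figure D3:**
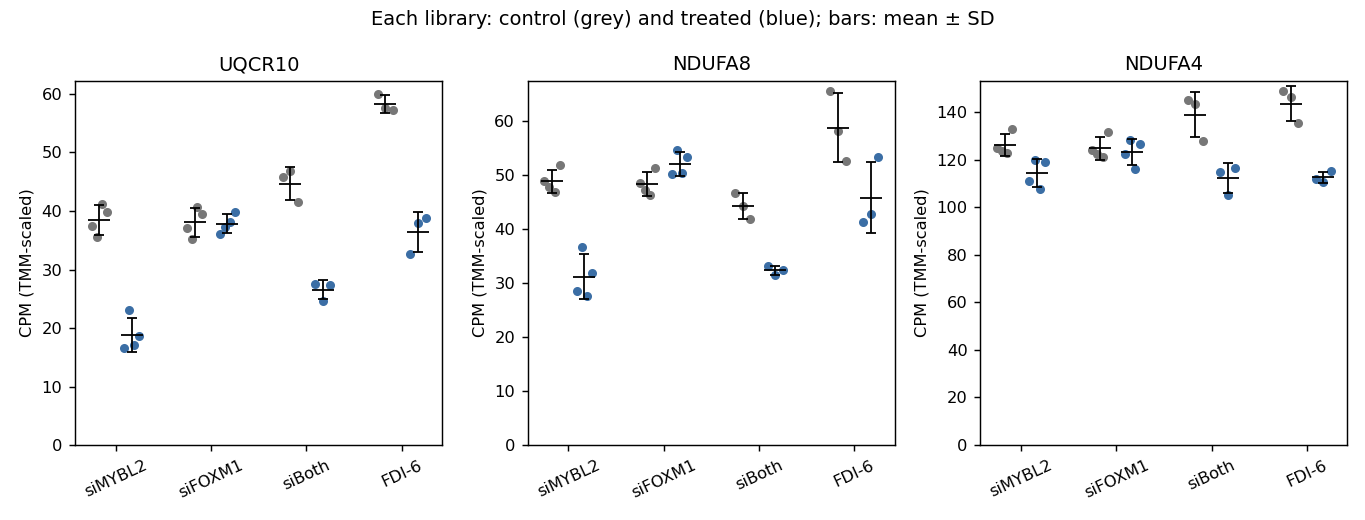
CPM of UQCR10, NDUFA8 and NDUFA4 in each library, grey for control and blue for treated, with mean ± SD, in the 4 comparisons. UQCR10 is 48.8% of control in siMYBL2, 59.4% in siBoth and 62.5% in FDI-6.

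Beyond UQCR10 and NDUFA8, 1 nuclear member rose and none other fell with siMYBL2. At this threshold 8.53% of all genes rose and 9.53% fell. The riser was NDUFB5, an accessory subunit in the membrane arm of complex I, at 46.1, 48.0, 46.9 and 55.2 CPM against 40.3, 41.3, 39.5 and 43.3 CPM (log2 fold change 0.26 ± 0.07 (SE), adjusted p = 0.0403). Its groups did not overlap, but the rise missed the threshold in 7 of the 8 fits that left out a library, all but the one without siControl replicate 4, with log2 fold changes of 0.20 to 0.28. NDUFA4 had a log2 fold change of -0.14 (adjusted p = 0.139, and 0.0135 with the replicate block). With the block, 6 nuclear members rose and 5 fell, where 23.6% and 23.1% of all genes did. The rises were NDUFB5, NDUFA5, NDUFS4, SDHC, ATP5PF and ATP5F1E. The falls were UQCR10, NDUFA8, NDUFA4, UQCR11 (a further small subunit of complex III) and ATP5F1D (the delta subunit of ATP synthase). The median log2 fold change over the nuclear members was 0.04, beside 0.01 over all genes.

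Of the mitochondrial genes, 1 passed the test in siMYBL2, and all were on the same side of control. All 13 had a log2 fold change above 0, with a median of 0.18. MT-CYB, cytochrome b and the core of complex III, rose from 2205, 2256, 2214 and 2069 CPM in siControl to 2729, 2729, 2622 and 2464 CPM in siMYBL2 (log2 fold change 0.27 ± 0.06 (SE), adjusted p = 0.0178). The groups did not overlap. The rise of MT-CYB missed the threshold without siMYBL2 replicate 1 (0.25, adjusted p = 0.0669), without siMYBL2 replicate 2 (0.24, adjusted p = 0.0531) and without siControl replicate 1 (0.27, adjusted p = 0.0561). With the replicate block, 12 of 13 rose, all but MT-ND2, by 0.12 (MT-ND1) to 0.28 (MT-ATP8) on the log2 scale. These 13 genes come from shared precursor RNAs and are not independent of each other. Their summed share of counts was 4.24, 4.35, 4.21 and 3.68% in siMYBL2 and 3.54, 3.66, 3.71 and 3.14% in siControl. The value of siMYBL2 replicate 4 lay within the control range. Replicate 4 was the lowest library of both groups, and each siMYBL2 library was above the siControl library of its number. The share of the nuclear members was 0.684 to 0.762% and 0.658 to 0.708%.

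With FOXM1 depleted, 0 of 81 nuclear and 0 of 13 mitochondrial members passed edgeR's test. Few genes did at all, with 0.667% called, 0.277% higher and 1.09% lower. DESeq2 also passed 0 members, and at an unadjusted p under 0.05 there were 2 nuclear members higher and 1 mitochondrial member lower. UQCR10 (log2 fold change -0.01 ± 0.07 (SE)) and NDUFA8 (0.11 ± 0.06 (SE)) were close to control, with overlapping groups. With the replicate block, 6 nuclear members rose (12.3% of all genes), namely NDUFA10, UQCRC2, SDHC, NDUFS4, ATP5MF and ATP5PO, and 7 mitochondrial members fell (14.0% of all genes). NDUFA10, an accessory subunit of complex I, measured 86.2, 91.4, 94.6 and 89.2 CPM against 75.7, 80.3, 83.1 and 78.7 CPM in siControl. Its groups did not overlap (log2 fold change 0.19, adjusted p = 0.148 without and 0.000210 with the block). MT-CYB measured 1936, 2047, 1689.7 and 1773 CPM against 2185, 2233, 2183 and 2048 CPM, each siFOXM1 library below each control (log2 fold change -0.22, adjusted p = 0.235 without and 8.59e-06 with the block). The other block falls were MT-ND1, MT-ND2, MT-ND4, MT-ND4L, MT-ND5 and MT-ND6, all of complex I. MT-ND3, also of complex I, passed in no alternative fit (log2 fold change -0.05 to 0.01). MT-CO1, MT-CO2 and MT-CO3 had log2 fold changes of 0.03, -0.01 and 0.00. Of complex V, MT-ATP6 passed in no alternative fit (-0.11 to -0.01). MT-ATP8 (-0.17 to 0.00) passed only with the block and a GC content and length correction together (adjusted p = 0.038). The median over the mitochondrial genes was -0.10, against 0.03 over the nuclear ones.

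The double knockdown again had UQCR10 and NDUFA8 below control. UQCR10 measured 27.5, 24.7 and 27.4 CPM in siBoth and 45.8, 46.8 and 41.5 CPM in siControl_siBoth (log2 fold change -0.75 ± 0.09 (SE), adjusted p = 0.00235). NDUFA8 measured 33.0, 31.5 and 32.4 CPM against 46.6, 44.2 and 41.8 CPM (-0.45 ± 0.08 (SE), adjusted p = 0.0117). The groups did not overlap for either gene. NDUFA8 missed the threshold without siControl_siBoth replicate 2 (-0.46, adjusted p = 0.0512). NDUFA4 measured 115, 105 and 117 CPM against 145, 143 and 128 CPM, again without overlap (-0.31 ± 0.09 (SE), adjusted p = 0.0525, and 0.00408 with the block). Of the nuclear members 2 were called, UQCR10 and COX6B2 (6.44% of all genes), 2 fell (7.77%) and 1 rose (4.55%). The riser, COX6B2, is the testis form of a complex IV subunit and was near the detection limit, at 1.83, 0.998 and 2.48 CPM against 0.405, 0.638 and 0.785 CPM (1.53 ± 0.40 (SE), adjusted p = 0.0423). Its call was lost in 5 of the 6 fits that left out a library, all but the one without siBoth replicate 2, with log2 fold changes of 1.20 to 1.81 and adjusted p up to 0.116. With the replicate block, 13 nuclear members rose and 3 fell, where 16.3% and 18.5% of all genes did. Among the risers were NDUFV1 (0.29) and NDUFS3 (0.24) of the complex I peripheral arm, SDHA (0.23), the flavoprotein of complex II, and COX4I1 (0.29).

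The mitochondrial genes varied widely within the double-knockdown experiment. Their share of counts was 5.72, 3.12 and 6.07% in siBoth and 5.13, 4.41 and 5.82% in siControl_siBoth, lowest in the number 2 library of both groups. MT-CO1 measured 15404, 8299 and 14693 CPM against 13765, 10181 and 14378 CPM, and the groups overlapped. The median log2 fold change was -0.24, with 12 of 13 below 0. It was 0.02 without siBoth replicate 2 and -0.05 without both number 2 libraries. edgeR and DESeq2 each passed 0 of 13, with 0 at an unadjusted p under 0.05, and with the block 6 fell. Without both number 2 libraries the whole set had 1 member lower and 0 higher.

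The siBoth and siMYBL2 experiments share no library, so their effects were compared directly. The fall of UQCR10 differed by 0.28 ± 0.15 (SE) on the log2 scale (siBoth minus siMYBL2, adjusted p = 0.730) and that of NDUFA8 by 0.19 ± 0.13 (SE) (adjusted p = 0.802), neither past the threshold. In this test 0.176% of all genes passed and 0 members did by edgeR (0 by DESeq2, and 4 at an unadjusted p under 0.05). With the replicate block 7.05% of all genes and 6 members passed, all mitochondrial (MT-ND4, MT-ND4L, MT-ND5, MT-ND6, MT-CYB and MT-ATP8). This contrast was not refitted without both number 2 libraries of the double knockdown.

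With FDI-6, nuclear subunits fell widely, with at least 1 in each complex. Of 80 tested, 54 were lower and 0 higher by edgeR (53 lower and 0 higher by DESeq2, and 1 higher at an unadjusted p under 0.05), where 17.9% of all genes were lower and 21.0% higher. The 12 called nuclear members were all lower, against 13.8% of all genes called in either direction. The median log2 fold change was -0.36, with 75 members below 0, beside -0.01 over all genes. The summed share of counts of the nuclear members was 0.677, 0.689 and 0.698% with FDI-6 and 0.884, 0.835 and 0.837% in control_FDI-6, without overlap. The nuclear members are short, with a median transcript of 760.5 bases against 3046.5 for all genes tested. After a correction for trends of the counts with GC content and transcript length, 42 nuclear members were lower (15.6% of all genes were lower and 15.8% higher) and the median was -0.21. With the correction 5 members were called in place of 14. The FDI-6 libraries also differed from control_FDI-6 without overlap in assigned pairs (16487394 to 17741253 against 18856286 to 21039750). The same held for pairs that matched no counted feature (4.86 to 4.93% against 3.995 to 4.37%) and for ambiguous pairs (9.78 to 10.47% against 10.7 to 11.2%). Whether the pairs without a feature lay in introns or between genes was not tested. The part of these differences in the fall was not tested. Without control_FDI-6 replicate 1, the number of called members, nuclear and mitochondrial together, was 6.

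**Figure D4:**
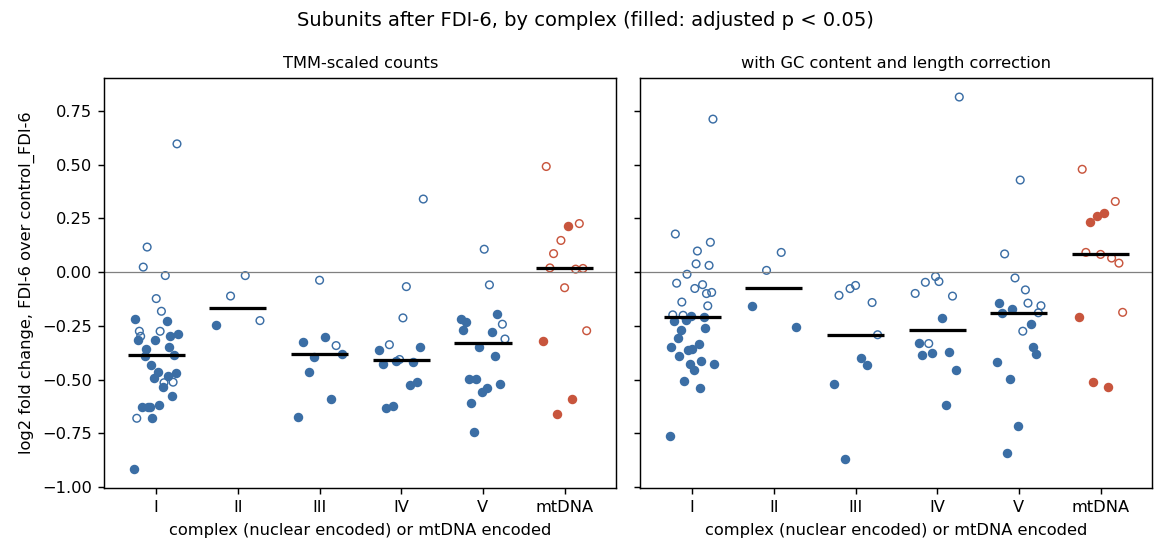
Log2 fold change of each tested member with FDI-6, by complex I to V for nuclear genes and apart for mitochondrial ones, with scaling to library size (left) and with the GC content and length correction (right); filled points have adjusted p under 0.05. The nuclear median moves from -0.36 to -0.21.

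In complex I, 23 of 35 nuclear members fell, with a median of -0.38. The lowest was NDUFA1, a small subunit of the membrane arm needed for assembly, at 18.7, 27.5 and 35.6 CPM with FDI-6 and 63.6, 46.6 and 44.8 CPM in control (log2 fold change -0.92 ± 0.19 (SE), adjusted p = 0.00323). The groups did not overlap, and the spread within each was wide, with FDI-6 replicate 1 the lowest library and control_FDI-6 replicate 1 the highest. NDUFB1 (-0.63), NDUFB2 (-0.68), NDUFB7 (-0.62) and NDUFB10 (-0.63) of the membrane arm and NDUFA3 (-0.63) were called as well. After the GC and length correction their log2 fold changes were -0.51, -0.36, -0.08, -0.22 and -0.31, all under the fold for a call, and NDUFB7 did not pass (adjusted p = 0.527). NDUFA1 stayed called, at -0.76. NDUFS1, the large iron-sulfur subunit of the peripheral arm, had a log2 fold change of -0.02 ± 0.06 (SE) with adjusted p = 0.868. Some members of complex I hold few counts or share exon bases with another gene (NDUFV2, NDUFA13, NDUFB8 and NDUFS7), and none of these passed. NDUFA8 also fell, at 41.3, 42.7 and 53.2 CPM against 65.4, 58.1 and 52.5 CPM with overlapping groups (-0.36, adjusted p = 0.0235), and after the GC and length correction its adjusted p was 0.235.

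In complex II, 1 of 4 members fell, where 17.9% of all genes were lower. SDHA had a log2 fold change of -0.25, adjusted p = 0.00592, and SDHB, SDHC and SDHD, the iron-sulfur subunit and the membrane anchors, had -0.11, -0.02 and -0.23 without passing. In complex III, 7 of 9 fell. UQCR10 was again low, at 32.6, 37.9 and 38.9 CPM against 60.0, 57.6 and 57.3 CPM, the groups well apart (log2 fold change -0.68 ± 0.09 (SE), adjusted p = 0.000114). UQCRH, the hinge protein that helps cytochrome c dock, fell by 0.59 on the log2 scale (adjusted p = 0.00624), though its near-identical copy UQCRHL (-0.34, adjusted p = 0.0623) could share reads with it. UQCRC2, a core protein, was at -0.04 ± 0.07 (SE) and did not pass.

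In complex IV, 9 of 14 nuclear members fell, with a median of -0.41. COX5B measured 66.7, 65.9 and 71.9 CPM with FDI-6 and 115, 102 and 100.03 CPM in control (-0.63 ± 0.08 (SE), adjusted p = 9.22e-05). NDUFA4 measured 112, 111 and 115 CPM against 149, 146 and 135 CPM (-0.35 ± 0.07 (SE), adjusted p = 0.00161). Both genes had all FDI-6 libraries below all controls. COX6B1 was called at -0.62, adjusted p = 0.0115, but missed the threshold after the GC and length correction (adjusted p = 0.0562) and without control_FDI-6 replicate 1 (-0.58, adjusted p = 0.0547). Of the subunits with tissue forms, COX4I1 was at -0.36, adjusted p = 0.00103 while COX4I2 was too low to test, COX6A1 at -0.34, adjusted p = 0.292 with COX6A2 untested, and COX8A at -0.51, adjusted p = 0.0115 with COX8C untested. COX8A missed the threshold without control_FDI-6 replicate 1 (-0.39, adjusted p = 0.0664). COX6A1 ranged from -0.55 to -0.05 when a library was left out, lowest without control_FDI-6 replicate 2 and highest without control_FDI-6 replicate 1, and passed without FDI-6 replicate 1 (-0.53, adjusted p = 0.0305). COX7A2 was at -0.21, adjusted p = 0.0641, and passed with upper-quartile scaling and without FDI-6 replicate 1 (adjusted p = 0.0329 and 0.000155). COX7A2L, which acts in respiratory supercomplexes, was at -0.07, adjusted p = 0.477, and passed as lower with the GC and length correction (-0.21, adjusted p = 0.00929). The muscle form COX7A1 (-0.41) did not pass and ranged from -0.73 to -0.01 when a library was left out, lowest without FDI-6 replicate 3 and nearest 0 without control_FDI-6 replicate 3. NDUFA4L2, a paralog of NDUFA4 induced by hypoxia, was at 0.34, adjusted p = 0.398.

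In complex V, 14 of 18 members fell, with a median of -0.33. ATP5IF1, the inhibitor that stops the enzyme from running backwards, measured 33.4, 31.5 and 41.0 CPM with FDI-6 and 65.1, 55.5 and 57.2 CPM in control. The groups did not overlap (-0.75 ± 0.11 (SE), adjusted p = 0.000282). ATP5F1E, the epsilon subunit of ATP synthase, was called at -0.61, adjusted p = 0.000614. The 3 genes that encode the same proton-carrying ring protein all fell, ATP5MC1 by 0.50, ATP5MC2 by 0.35 and ATP5MC3 by 0.56 on the log2 scale. After the GC and length correction ATP5F1E was at -0.84 and ATP5IF1 at -0.50, and ATP5MC2 of this complex and COX4I1 and COX8A of complex IV did not pass (adjusted p = 0.695, 0.131 and 0.505). The correction took 1 annotated canonical transcript per gene, of 3610 bases for ATP5F1E, 503 for ATP5IF1 and 2282 for COX7A2L of complex IV. Whether the cells used other lengths was not tested, so the corrected values rest on that annotation.

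The mitochondrial genes did not fall together with FDI-6. Their median was 0.02, and 3 of 13 fell while 1 rose (4 lower and 1 higher by DESeq2). Among all genes tested, 17.9% were lower and 21.0% higher. MT-CO3, a core subunit of complex IV, measured 5520.4, 6153 and 5546 CPM with FDI-6 and 9208, 8775 and 9221 CPM in control (-0.66 ± 0.05 (SE), adjusted p = 5.14e-06). MT-ND3, a complex I subunit, measured 389.5, 475 and 526 CPM against 843, 603 and 646 CPM (-0.59 ± 0.13 (SE), adjusted p = 0.00338). MT-ATP6, the proton channel subunit of ATP synthase, measured 4130.4, 3712 and 3315 CPM against 4606, 4656 and 4656 CPM (-0.32 ± 0.07 (SE), adjusted p = 0.00388). For these 3 genes every treated library was below every control. MT-ND2 rose, at 3876, 4309.7 and 3931 CPM against 3453, 3456 and 3549 CPM, again without overlap (0.21 ± 0.05 (SE), adjusted p = 0.00843). MT-ND6 measured 551, 419 and 381 CPM against 578, 498 and 556 CPM, with overlapping groups (-0.27 ± 0.11 (SE), adjusted p = 0.0776). It passed as lower in 6 of the 15 alternatives, DESeq2 among them (adjusted p = 0.0484). MT-CYB did not pass in the main test but passed as higher in 4 of the 15 alternatives, with log2 fold changes of 0.07 to 0.26 over them. MT-CO1 spread widely with FDI-6, at 24239, 20355 and 17253 CPM against 20136, 20036 and 20836 CPM (0.02 ± 0.09 (SE), adjusted p = 0.886). Without FDI-6 replicate 1 its log2 fold change turned to -0.11, adjusted p = 0.0392.

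MT-ATP6, MT-CO3 and MT-ND3 are consecutive subunit genes of the heavy strand (hg38 chrM:8527-9207, chrM:9207-9990 and chrM:10059-10404). The border of MT-ATP6 and MT-CO3 is shown because no tRNA separates them there, and the capitals mark the start codon of MT-CO3.
MT-ATP6 and MT-CO3 border, forward strand (hg38 chrM:9192-9221): gcacgacaacacataATGacccaccaatca
Their neighbours upstream, MT-CO2 and MT-ATP8, had log2 fold changes of 0.09 and 0.49, and those downstream, MT-ND4L and MT-ND4, 0.23 and 0.01, none past the threshold. Most of these values moved with a library or a setting. MT-ATP8 went from -0.03 without FDI-6 replicate 1 to 0.74 without FDI-6 replicate 3, where it passed (adjusted p = 0.0236). MT-ND4L ranged from 0.02 to 0.39 when a library was left out, lowest without control_FDI-6 replicate 2 and highest without control_FDI-6 replicate 1. MT-CO2 passed as higher with the GC and length correction (0.24, adjusted p = 0.00388) and without FDI-6 replicate 3 (0.16, adjusted p = 0.0166). MT-ATP8 shares 22.2% of its exon bases with MT-ATP6, so reads there could have been left out as ambiguous. In the siRNA comparisons MT-ATP6, MT-CO3 and MT-ND3 had log2 fold changes from -0.27 to 0.20 and did not pass without the replicate block. With it, all 3 were higher in siMYBL2 (adjusted p = 0.00557, 0.00495 and 0.00425), and MT-ATP6 was lower in siBoth (-0.33, adjusted p = 0.0469).

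**Figure D5:**
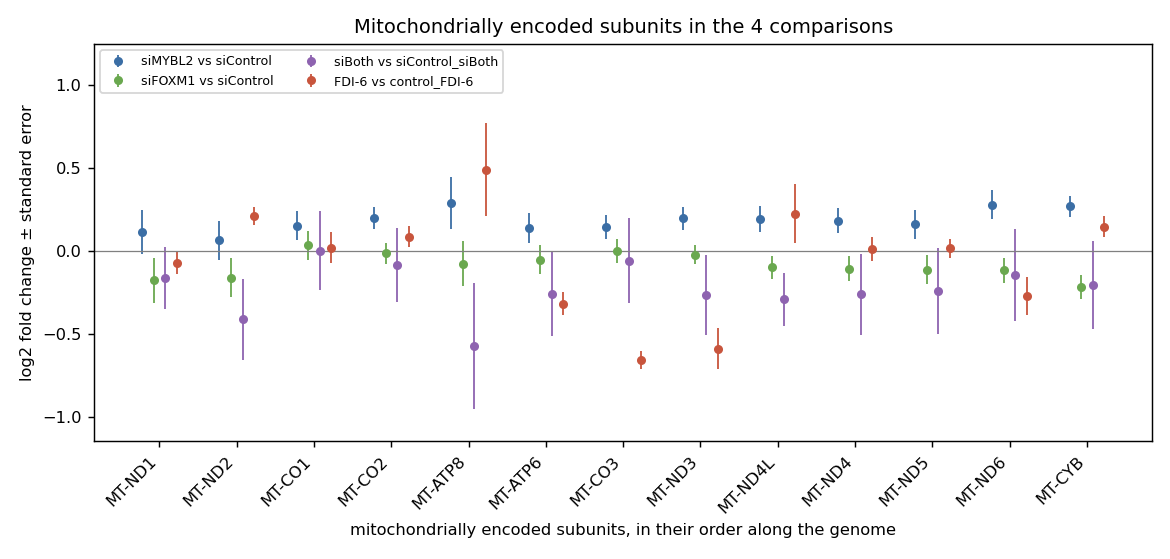
Log2 fold change ± SE of the 13 mitochondrial subunit genes in genome order, in the 4 comparisons. With FDI-6, MT-ATP6, MT-CO3 and MT-ND3 stand at -0.32, -0.66 and -0.59, and with siMYBL2 all 13 lie above 0.

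FDI-6 and FOXM1 siRNA both act on FOXM1 and share no library, so the effects were compared gene by gene, where 20.9% of all genes differed. Of the members 45 had a lower effect with FDI-6 and 2 a higher one. The differences (FDI-6 minus siFOXM1, log2 scale) were -0.91 ± 0.23 (SE) for NDUFA1, -0.82 ± 0.13 (SE) for ATP5IF1, -0.67 ± 0.11 (SE) for UQCR10, -0.33 ± 0.08 (SE) for NDUFA4 and -0.66 ± 0.10 (SE) for MT-CO3, with adjusted p of 0.0122, 0.000483, 0.000701, 0.0121 and 0.000431. The higher ones were MT-CYB (0.36 ± 0.11 (SE), adjusted p = 0.0270) and NDUFV2 (1.17 ± 0.37 (SE), adjusted p = 0.0358), the latter on a mean of 33.5 counts a library. Without control_FDI-6 replicate 1 the number of members that differed was 28 in all. The agent and the experiment differ together between these arms and cannot be told apart.

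Genes that build or serve the chain were read from the same fits. TMEM70, an assembly factor of ATP synthase and complex I, fell with siMYBL2 (-0.61, adjusted p = 0.00400), siFOXM1 (-0.29, adjusted p = 0.0264) and siBoth (-0.89, adjusted p = 0.00328). Of 15 complex I assembly factors, 4 fell in siMYBL2, 1 in siFOXM1, 1 in siBoth and 6 with FDI-6, which is 26.7%, 6.67%, 6.67% and 40% of the list. Among all genes tested 9.53%, 1.09%, 7.77% and 17.9% were lower in these comparisons, and 8.53%, 0.277%, 4.55% and 21.0% higher, and the counts of this and the lists that follow are to be read beside those shares. With FDI-6, NDUFAF8 (-0.55) and ACAD9 (-0.44) had the lowest p. NDUFAF3 was lower in siMYBL2 (-0.40, adjusted p = 0.00848). Among assembly factors of complexes II to V, the share lower was 6.45% in siMYBL2, 3.23% in siFOXM1, 3.23% in siBoth and 24.1% with FDI-6. Of these genes 3 rose and 2 fell of 31 in siMYBL2 (SCO1 -0.33, COX20 0.76), and 1 rose (SURF1 0.54) and 1 fell (COA7 -0.45) in siBoth. In siFOXM1 the one that fell was LYRM7, which matures the iron-sulfur subunit of complex III (-0.84, adjusted p = 0.00551). With FDI-6, 1 rose and 7 fell of 29 (COX14 -0.74, UQCC2 -0.48).

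TFAM, which packages mitochondrial DNA and starts its transcription, fell with siFOXM1 (-0.72, adjusted p = 0.00259) and siBoth (-0.70, adjusted p = 0.0243). With FDI-6 it was higher (0.30, adjusted p = 0.00539), a value chosen after it was seen, and its effect differed between FDI-6 and siFOXM1 by 1.02 ± 0.11 (SE), adjusted p = 2.86e-05. It was the one gene to pass in siFOXM1 and siBoth of the 34 tested for transcription, replication and RNA processing of mitochondrial DNA. In siMYBL2 4 of that list fell, led by POLG, the mitochondrial DNA polymerase (-0.58, adjusted p = 0.000561), and TBRG4 (-0.37), and with FDI-6 5 rose and 5 fell, led by HSD17B10 (-0.43) and FASTK (-0.50). The shares lower were 11.8% in siMYBL2 and 14.7% with FDI-6, beside 9.53% and 17.9% of all genes. Among 9 nuclear regulators of mitochondrial genes, YY1 and MYC fell in siMYBL2 (-0.29 and -0.65) and in siBoth (-0.36 and -0.39), while 4 rose with FDI-6, among them PPARGC1B (0.65) and MYC (0.42). Of the electron carriers outside the rule, CYC1 (-0.30) and CYCS (-0.33) fell in siMYBL2, CYCS (-0.41) in siBoth and CYC1 (-0.39) with FDI-6.

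Ribosomal protein genes are, like the nuclear subunits, short and highly expressed. With FDI-6, 65 of 84 cytosolic ones fell and 1 rose, with a median of -0.28, and 35 of 77 mitochondrial ones fell and 2 rose, with a median of -0.26. After the GC and length correction those medians were -0.13 and -0.08, beside -0.21 for the nuclear subunits. The shares lower with FDI-6 were 77.4% and 45.5%, beside 17.9% of all genes. In siMYBL2, 11 mitochondrial ribosomal protein genes fell and 2 rose of 77 (14.3% lower, beside 9.53% of all genes), led by MRPS12 (-0.90, adjusted p = 0.00258) and MRPL21 (-0.75, adjusted p = 0.00319). These also led the 4 that fell in siBoth (-0.60 and -0.63), 5.13% of the list beside 7.77% of all genes. Of the cytosolic ones 4 fell in siMYBL2 (RPL29 -0.21, 4.82% of the list) and 2 in siBoth (RPL22L1 -0.60, 2.41%). In siFOXM1 the medians of these lists were -0.04 and -0.02.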

How the data were processed

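RNA from A549 cells was captured by poly(A), sequenced as paired ends and deposited as gene counts for 24 libraries. The authors trimmed reads with Trim Galore, aligned them with STAR to hg38 and counted read pairs per gene with HTSeq, with versions and strand setting not given in the sources used here. The deposited counts are raw whole numbers for 58721 identifiers. Counts of no gene (unaligned, ambiguous, unassigned or multiply aligned pairs) were 18.5% to 26.2% of a library and stayed out of library sizes, leaving 16487394 to 30140550 pairs. Shares of counts carry counting error far below the spread between libraries. Symbols came from GENCODE V44, which matched 58207 identifiers and not 514.

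Each treatment was compared with its own control by edgeR 4.0.16 (quasi-likelihood test, TMM scaling, filterByExpr) in R 4.3.3, with Benjamini-Hochberg adjustment over all genes tested. CPM are TMM-scaled. 2 contrasts tested differences between effects. Members were named by a rule: the 13 mitochondrial genes, NDUFA4, ATP5IF1, paralog sets, members called at adjusted p under 0.05 and fold change over 1.5, and the 4 largest rises and falls with a mean of at least 100 counts; from assembly, mitochondrial DNA, regulator and ribosomal protein lists, the 2 genes of lowest adjusted p. Members named outside the rule (those passing with the block alone, NDUFV2, and members that did not pass with FDI-6) were chosen after their values were seen. Members and lists were chosen with earlier results of these data known. Alternatives were other scalings and filters, DESeq2 1.42.0, a replicate block, a correction of GC content and transcript length (a trend of 5 degrees of freedom per library), and leaving out libraries. Scripts were tested on simulated data.

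The study's methods call the replicates biological. Same-numbered libraries deviated together in every pair of siMYBL2 (r = 0.573 to 0.875), siFOXM1 (0.539 to 0.906) and siBoth (0.553 to 0.688). Their numbers were taken as pairs only in the fits with the replicate block. The main test, which defines rises and falls here, held no block and did not use the pairing. No 2 libraries of a group agreed within sampling noise (chi-square per gene 3.57 to 62.8).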

Additional observations from a re-analysis of the deposited data

Results flagged for a closer look

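A screen of 89 values of named genes within groups of 4 libraries marked 7 in which a single library stood far from the rest, and chance alone marks about 1 in 20 such groups. The levels here are CPM scaled over all 24 libraries. Replicate 4 of siFOXM1 was low for MT-CO1, at 9780 CPM with the nearest library at 11240, and for MT-CO3, at 3736 CPM with the nearest at 4171. Replicate 4 of siControl was low for MT-ATP6, at 2220 CPM with the nearest at 2674, and high for ATP5MC2, at 154.1 CPM with the nearest at 140.5. COX4I1 was low in siControl replicate 2, at 238.1 CPM with the nearest at 254.3. ATP5MC1 was high in siControl replicate 1, at 121.8 CPM with the nearest at 115.5. COX6B2 was low in siFOXM1 replicate 2, at 0.4443 CPM with the nearest at 0.72.

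Effects on members also differed between the FOXM1 inhibitor and FOXM1 siRNA in a direct test, with 45 members lower and 2 higher in FDI-6 relative to siFOXM1.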

How the results depend on the processing

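Counts here are members, nuclear and mitochondrial together, at adjusted p under 0.05. In siMYBL2 the 2 rises became 5 with upper-quartile scaling, 0 with no low-count filter and 6 with the GC and length correction. They became 18 with the replicate block and 20 with block and correction, where the 2 falls became 5 and 6. Over all genes tested, 1371 rose in the main fit and 1771, 1138, 1371, 3792 and 3763 in these settings, in the same order. The falls over all genes went from 1531 to 3715 with the block and 3900 with block and correction. In siFOXM1 the block gave 6 rises and 7 falls, and block with correction 8 and 10. Over all genes the main fit had 44 rises and 173 falls, the block 1955 and 2232, and block with correction 2026 and 2382. In siBoth the rises became 4 with upper-quartile scaling, where the nuclear median was 0.15, and 13 with the block or block and correction. They became 0 with at least 10 counts in every library, with the correction, or without both number 2 libraries (chosen after seeing the data). Over all genes, upper-quartile scaling moved the median from 0.02 to 0.09 and the rises from 720 to 1064. The block gave 2572 rises over all genes, block and correction 2647, the 10-count filter 706 and the correction 695. Member falls in siBoth became 5 with no filter, 9 with the block, 10 with block and correction and 1 without both number 2 libraries. Over all genes they went from 1229 to 1672 with no filter, 2929 with the block and 3049 with block and correction. In siBoth 1 rather than 2 members were called with the 10-count filter, the correction or without both number 2 libraries. Called genes went from 1019 to 971 with that filter and 842 with the correction. With FDI-6 the member rises became 4 with no filter or with block and correction and 3 with the correction. Over all genes they went from 3200 to 3172, 2152 and 2405 in these settings. With the correction, alone or with the block, 5 members were called, and the nuclear median was -0.21 under both. Called genes went from 2098 to 1342 with the correction and 1272 with block and correction. The siBoth minus siMYBL2 contrast had 6 members with the block, where 7.05% of all genes passed. The causes of these moves were not tested.

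Leaving out a library gave 0 to 3 rises and 2 to 3 falls in siMYBL2, 0 of either in siFOXM1, and 0 to 1 rises, 1 to 2 falls and 1 to 2 called in siBoth. With FDI-6 it gave 1 to 3 rises, 41 to 67 falls and 6 to 21 called. The mitochondrial median ranged from 0.13 to 0.22 in siMYBL2, -0.15 to -0.05 in siFOXM1, -0.40 to 0.02 in siBoth and -0.03 to 0.10 with FDI-6, and the nuclear one from 0.02 to 0.10 in siBoth and -0.40 to -0.34 with FDI-6. The FDI-6 minus siFOXM1 contrast had 28 to 47 members past the threshold, against 47 in full and 65 with the replicate block. MT-CO1 with FDI-6 turned to -0.11 without FDI-6 replicate 1. Of 1972 values of named members under an alternative, 1842 kept their side of the threshold, 32 missed it, 97 passed it and 1 reversed. Changes of sign among values that did not pass were not counted as reversals. An example is MT-CO1 in siBoth, which ranged from -0.16 to 0.23.

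In FDI-6 the replicate numbers did not pair the libraries (r = -0.288 to 0.161, with 1 of 3 libraries closest to its own number), and the block left 49 nuclear members lower. The depth limits the members under about 30 counts a library, such as COX6B2 and COX7A1.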

Other observations

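The nuclear genome holds copies of mitochondrial genes, and 404 such pseudogenes are in the tables. Few had counts to test (3 to 6 in a comparison), and the highest, MTATP6P1, had a mean of 333 CPM over all libraries. With FDI-6 it was at -0.27, adjusted p = 0.443 by edgeR, beside -0.32, adjusted p = 0.00388 for MT-ATP6. MTCO1P12 fell (-0.75, adjusted p = 0.00313) and MTND2P28 rose (0.75, adjusted p = 0.0104) in the same comparison, where MT-CO1 was at 0.02 and MT-ND2 at 0.21. Reads of these copies and of the mitochondrial genes are near-identical, and how they were divided was not tested.

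Promoter windows of the nuclear members were searched for motif letters on both strands, with 70 of 89 members matched to a window and 27305 windows in all. GCGCANGC, recognised by NRF1, was in 28 member windows (40%) against 12.5% of all windows, and CCGGAAG, recognised by ETS factors such as GABPA, in 20 (28.6%) against 10.7%. TTTGAA was in 3 (4.29%) against 15.4%, TTTAAA in 6 (8.57%) against 12.3%, CCAAT in 25 (35.7%) against 35.7%, and the Myb letters AACNG in 54 (77.1%) against 77.1%. In the 46 matched members that fell with FDI-6 the shares were 34.8% for GCGCANGC, 26.1% for CCGGAAG, 4.35% for TTTGAA, 6.52% for TTTAAA, 34.8% for CCAAT and 73.9% for AACNG. These shares describe letters in a window, not sites, and the base composition of the sets was not compared.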
